A study of Mus musculus with 11 samples.

Results

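The wells described here are 55 single testis cells with the highest summed level of 6 genes: Dmc1, Eml5, Inca1, Sgsm3, Pbx3 and Ugt8a. They carry the label leptotene spermatocytes and are called the Dmc1-high wells below. A well scored the mean over the 6 genes of ln(1 + UMIs per 10000), where a UMI (unique molecular identifier) marks one captured mRNA molecule. The top 4.5% of kept wells within each mouse were taken, which gave 21, 12 and 22 wells in mice 1, 2 and 3. They were drawn from 1228 kept wells, those with at least 3000 UMIs, of 1920 wells in all.

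The study sorted live GFP-positive cells from the testes of 3 adult Dazl-GFP reporter mice, in which the GFP reports the germ cell gene Dazl, and sequenced single cells by the plate-based SORT-Seq method. The mice were untreated, and their strain and their age in weeks are not given in the sources used here. All 3 mice carry the same reporter, and no animal without it was analysed here. Mouse 1 was prepared as 8 libraries by the CEL-Seq1 protocol, mouse 2 as 1 library and mouse 3 as 2 libraries by CEL-Seq2, so mouse 1 and the protocol cannot be told apart. One library of mouse 3 was sorted by gate alone and held 13 of the wells, and the other, sorted with the index of each cell recorded, held 9.

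Leptotene is the first stage of meiotic prophase. After the last DNA replication the chromosomes begin to condense along a protein axis, SPO11 cuts the DNA at sites marked by PRDM9, and the broken ends are coated by the recombinase DMC1, which takes part in the search for the homologous chromosome. Preleptotene cells, which replicate their DNA under the control of STRA8, come before it, and zygotene cells, in which homologues start to pair, come after it. For this reason 2 neighbouring sets were built at the same 4.5% per mouse: a preleptotene set of 49 wells (17, 12 and 20), scored on Stra8, Rec8 and Mcm5, and a zygotene set of 52 wells (20, 11 and 21), scored on Ccnb3, Meiob, Spata22 and Psma8. Wells that would have entered 2 sets stayed with the Dmc1-high wells. This concerned 6 wells that were also high by the preleptotene score and 3 that were also high by the zygotene score.

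The Dmc1-high wells were shallower than the other wells. Their median was 7326, 7020 and 10772 UMIs in mice 1, 2 and 3, against 23583, 13601 and 20492 in the 1173 other kept wells. Depth in the neighbouring sets was closer, with medians of 12919, 6608 and 10959 UMIs in the preleptotene set and 10662, 7404 and 11592 in the zygotene set. Each well held 1 sorted cell, no doublet caller was run, and 0 pairs of kept wells held identical values. In all following comparisons the mouse is the replicate (n = 3). UMIs were summed over the wells of a set within each mouse, and levels are given in CPM, the UMIs of a gene per 1000000 UMIs of that sum.

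The score fell off gradually, so the set is a range cut from a continuous score and not a separate type. The highest score was 2.28, 2.11 and 2.27 in mice 1, 2 and 3, and the median of the Dmc1-high wells was 1.51, 1.75 and 1.84. The median of the other wells was 0.24, 0.29 and 0.25. The lowest well inside scored 1.42, 1.59 and 1.61, and the highest well outside scored 1.41, 1.58 and 1.59. Within 0.1 of the lowest well inside lay 16, 10 and 13 wells. Of the 55 wells, 42 held UMIs of all 6 genes and 13 held 5 of them. In the other wells, 48 held all 6. After each well was thinned to 3000 UMIs, 10 of the Dmc1-high wells still held all 6, 22 held 5, 20 held 4 and 3 held 3.

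**Figure D1:**
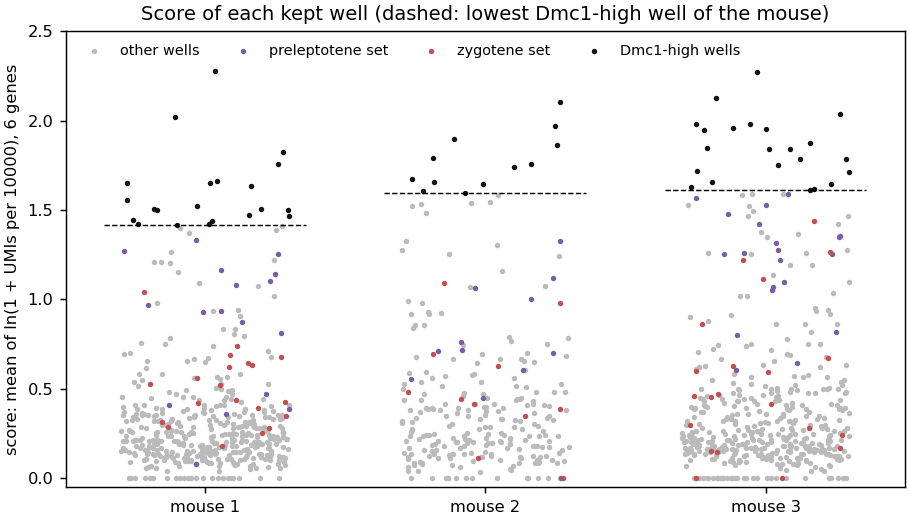
Score of every kept well (vertical axis, mean of ln(1 + UMIs per 10000) over the 6 genes) by mouse. Black points are the Dmc1-high wells, purple and red points the preleptotene and zygotene sets, grey points all others, and the dashed line marks the lowest Dmc1-high well of each mouse at 1.42, 1.59 and 1.61, with no gap around it.

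The 6 genes chose the wells, so their levels are a description and were not tested. Dmc1 encodes the meiosis-specific recombinase and lies on the minus strand of chr15:79561497-79605159 (build GRCm38). Its level was 1005, 1344 and 1456 CPM in mice 1, 2 and 3, against 66.4, 95.2 and 70.6 in the other wells. That is a ratio of means of 16.4, or 14.1 when the wells were chosen by the other 5 genes alone. Eml5, a microtubule-associated protein gene at chr12:98786604-98901511, stood at 381, 661 and 436 against 20.1, 25.9 and 16.1. Inca1, which encodes an inhibitor of cyclin-dependent kinase, stood at 599, 736 and 749 against 62.9, 65.0 and 67.7. For each of these genes every mouse had a higher level in the Dmc1-high wells than any mouse had in the other wells. Sgsm3, a regulator of small GTPases, ranged from 272 to 491 against 32 to 45.0. Pbx3, a homeobox transcription factor gene, ranged from 256 to 339 against 8.77 to 10.7, and its mean was 252 rather than 305 when Pbx3 itself was left out of the score. Ugt8a, which encodes the enzyme that adds galactose to ceramide, ranged from 339 to 564 against 17.3 to 42.0.

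The neighbouring sets differed in these genes. In the preleptotene set Dmc1 was already at 323, 421 and 590 CPM, and in the zygotene set at 322, 235 and 327. Eml5 was at 164, 105 and 173 in the preleptotene set but at 44.8, 18.1 and 24.7 in the zygotene set. Sgsm3, Pbx3 and Ugt8a had the same shape, with each mouse's value in the preleptotene set above its value in the zygotene set.

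**Figure D2:**
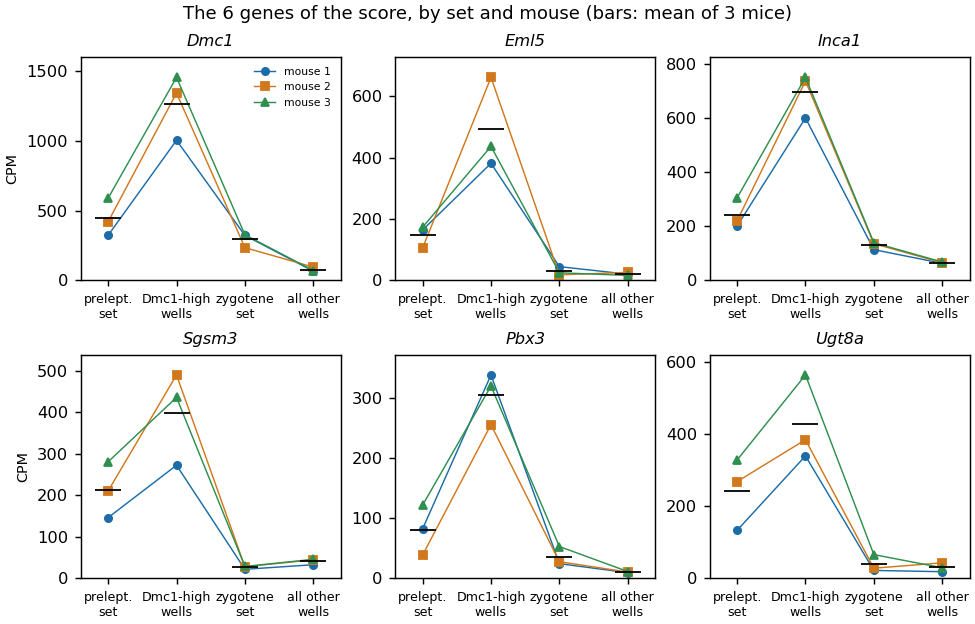
Level of each of the 6 score genes (vertical axes, CPM) in the preleptotene set, the Dmc1-high wells, the zygotene set and all other wells. Points are the 3 mice, joined by lines, and bars are means; each gene peaks in the Dmc1-high wells, which the choice of wells fixes, and Dmc1 keeps a level of 235 to 327 in the zygotene set.

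The promoters of some of these genes hold the motif CNCCTCAG, a sequence that STRA8 is known to bind. The motif was chosen with the data in hand and was searched on both strands in the 250 bases before each start site in the RefSeq table of build GRCm38.p6. It was found for 2 of the 5 score genes with an entry, Inca1 and Ugt8a, and for Prdm9, which was 1 of 11 listed genes, or 9.09%, among those named below as higher than in the other wells. The windows of 60 bases are shown because they let these promoters be compared directly. The motif, in either orientation, is in capitals, and each is written on the strand of its gene.
Prdm9 (chr17:15564362-15564421): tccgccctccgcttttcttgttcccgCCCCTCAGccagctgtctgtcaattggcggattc
Inca1 (chr11:70700264-70700323): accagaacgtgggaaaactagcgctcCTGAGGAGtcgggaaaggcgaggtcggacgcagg
Ugt8a (chr3:125938653-125938712): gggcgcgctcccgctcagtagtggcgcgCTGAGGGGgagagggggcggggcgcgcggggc

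Over all 27025 genes of that table, 7.39% held the motif, and among the 8551 genes that were both tested and listed, 8.90% held it. Of the genes called higher than in the other wells 13.0% of 1728 held it, and of those called lower 6.07% of 1959. Of the genes called higher than in the preleptotene set 11.8% of 279 held it, against 8.33% of 216 called lower. Of the genes called higher than in both neighbouring sets 15.2% of 158 held it. These shares describe letters in a window and were not tested.

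Markers of other cells ranged from absent to higher than in the other wells, as the sums of the Sertoli and peritubular myoid markers were. Among markers of undifferentiated spermatogonia, Gfra1, Ret, Lhx1, Nanos3 and Sall4, 5 of 8, were at 0 UMIs in the Dmc1-high wells, and the sum of the 8 ranged from 21.3 to 65.7 CPM over the mice, against 296 to 359 in the other wells. The 8 markers of differentiating spermatogonia were present: they summed to 448 to 527 CPM, against 476 to 745 in the other wells, with UMIs in 54 of 55 wells and a median well at 3.91 against 3.89 UMIs per 10000. In the test against the other wells, 1 of these 8 was higher and 5 were lower. The 8 pachytene markers summed to 618 to 1340 against 3674 to 6748 in the other wells, with a median well at 7.91 against 15.1 UMIs per 10000. The 6 spermatid markers summed to 96.6 to 267 against 41.7 to 183, and their median well stood at 0. Both macrophage markers in the table and all 3 endothelial markers were at 0. The other wells held means of only 1.88 and 2.36 CPM of these, below the 5.79 CPM that 3 UMIs make in the Dmc1-high wells. These zeros therefore show no depletion. Of the 5 Leydig markers 4 were at 0. Through Star, the 5 summed to 12.1, 21.3 and 7.73 CPM in mice 1, 2 and 3, against 9.51, 6.38 and 7.76, with UMIs in 5 of 55 wells. The 3 peritubular myoid markers summed to 7.73 to 12.1 against 5.14 to 6.16, with UMIs in 4 of 55 wells. The 7 Sertoli markers summed to 46.4 to 170 against 30.5 to 47.8, with UMIs in 13 of 55 wells. Among the Sertoli markers Amh was at 0, and 3 of the 6 tested, Cldn11, Aard and Defb19, were called higher. The part of these RNAs in the results below was not tested. By the neighbours' own scores, the 3 preleptotene genes reached 9.97 UMIs per 10000 in the median Dmc1-high well and 1.56 in the median other well, and the 4 zygotene genes 3.91 and 5.23. The label leptotene was kept.

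The Dmc1-high wells differed from the other wells in a large share of genes, with Rbpms2 and Slit2 among the higher and Alas1 and Rfx4 among the lower. Of 11355 genes tested by edgeR's quasi-likelihood test with the mouse as a block, 2218 were higher and 2660 lower at an adjusted p under 0.05, which is 43.0% of the genes, with 19.5% higher and 23.4% lower. Without mouse 1 the higher genes were 1380, and without mouse 3 they were 1195. The wells were chosen by 6 genes measured in the same cells, so any gene that varies with those 6 had to differ here. The adjusted p therefore does not test the choice of wells. It depends on the size of a difference as well as on its spread, so it is not a measure of evenness over the 3 mice. This limit also holds for the comparisons with the neighbouring sets. Within these data fewer cells of a type and less RNA per cell cannot be told apart in a sum. With other scalings the median log2 difference of all genes, -0.23, shifted by -0.14 to -0.18, and the share of calls that were higher, 45.5%, became 36.7% to 43.9%.

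Among genes of at least 50 CPM in the higher set, the one with the highest fold was Rbpms2, which encodes an RNA-binding protein and lies at chr9:65629356-65660536. It stood at 490, 597 and 576 CPM in mice 1, 2 and 3, against 12.9, 32.8 and 24.5 in the other wells, so the ranges were far apart. The log2 difference was 4.78 (SE 0.20, adjusted p = 6.78e-123). Prdm9, the histone methyltransferase that places recombination sites (chr17:15543072-15564374), stood at 375, 821 and 436 against 22.9, 42.2 and 26.5. Its log2 difference was 4.23 (SE 0.20, adjusted p = 1.96e-98), with mouse 2 highest. Slit2, a secreted guidance ligand, reached 66.6, 53.3 and 85.0 against 1.96, 3.72 and 3.31, a log2 difference of 4.72. The X-linked histone demethylase gene Kdm6a stood at 163, 224 and 112 against 6.38, 15.2 and 5.82. The other genes among the 12 with the largest rise at that minimum of 50 CPM were Gpr137c, Stxbp5l, Gal3st1, Greb1l, Pdlim5, Tnfrsf13c, Sdk1 and Efnb2, with fitted folds from 17.2 for Efnb2 to 20.6 for Gpr137c. Efnb2 encodes a ligand of Eph receptors, and Gal3st1 the sulfotransferase that acts on the galactolipids made by Ugt8a.

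Several genes of the other wells were nearly absent. Alas1, the first enzyme of heme synthesis, had 0 UMIs in the Dmc1-high wells of all 3 mice and 79.7, 68.2 and 90.4 CPM in the other wells, where it was at least 14.3-fold higher against a floor of 3 UMIs over the set. That floor is 5.79 CPM. Rfx4, a transcription factor gene, and Lrriq1 were also at 0, and were at least 13.7-fold and 8.88-fold higher in the other wells. B9d1, a gene of the ciliary transition zone, had 1 UMI, and the ratio was 49.6 (95% exact counting interval 8.90 to 1961). Ranges did not overlap for any of these genes. The remaining genes with the lowest log2 values, each with 1 UMI in the Dmc1-high wells, were 4930444F02Rik, Ube2u, Crybg3, Cbx7, Ccdc175 and E230008N13Rik.

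The comparison with the preleptotene set asks what differs between wells just entering meiosis and the Dmc1-high wells, at median depths that were close in mice 2 and 3 and 7326 against 12919 UMIs in mouse 1. Of 5821 genes tested, 359 were higher and 293 lower in the Dmc1-high wells by edgeR, which is 11.2% of the genes, with 6.17% higher and 5.03% lower. The count rests on the number of mice and on the block. Without mouse 3 it was 83 higher and 81 lower, without mouse 1 it was 206 and 169, and without mouse 2 it was 208 and 154. With no block for the mouse it was 38 and 30, and with DESeq2 it was 123 and 82. DESeq2's 123 and 82 genes were all among the calls of edgeR.

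The 6 genes that rose most against the preleptotene set included Spo11, Rad51ap2 and Mybl1. Spo11, the enzyme that cuts the DNA, stood at 121, 139 and 216 CPM in the Dmc1-high wells and at 13.7, 9.56 and 28.1 in the preleptotene set. The ranges did not overlap, and the log2 difference was 3.10 (SE 0.41, adjusted p = 1.27e-05). Rad51ap2 stood at 182, 203 and 363 against 27.3, 47.8 and 28.1, a log2 difference of 3.01 (SE 0.38, adjusted p = 8.89e-06). Mybl1, the transcription factor gene known for its role in pachytene, was already present at 109, 117 and 46.4 against 18.2, 9.56 and 4.68, a log2 difference of 2.87. All 3 genes were separated in every mouse. Rnpc3, a component of the minor spliceosome, rose by 2.78 on the log2 scale, 4933427G17Rik by 3.17 and C330013E15Rik by 2.69.

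The 6 genes that fell most against the preleptotene set were Msi2, Acadm, Sfmbt2, Zglp1, Trmt11 and Jund. Jund, an AP-1 transcription factor gene, stood at 18.2, 10.7 and 19.3 CPM against 146, 115 and 168 in the preleptotene set, and fell by 3.08 on the log2 scale (SE 0.46, adjusted p = 6.56e-05). Zglp1, a germ cell transcription factor gene, stood at 0, 32 and 19.3 against 63.8, 162 and 201 and fell by 3.32. Sfmbt2, a Polycomb protein gene, stood at 12.1, 10.7 and 11.6 against 109, 239 and 88.9 and fell by 3.44. Ranges did not overlap for these genes. Msi2, an RNA-binding protein gene, fell by 3.97, Acadm, an enzyme of fatty acid oxidation, by 3.66 and Trmt11, a tRNA methyltransferase gene, by 3.31. Each had 2 UMIs in the Dmc1-high wells, against 39, 30 and 24 in the preleptotene set. The ratios were 18.8 (95% exact counting interval 4.86 to 161), 14.4 (3.66 to 125) and 11.6 (2.87 to 101). Their calls were lost in 3 of 12, 1 of 10 and 2 of 8 alternative analyses, and that of Zglp1 in 3 of 14. Stra8 itself had chosen the preleptotene set and was not tested; it was at 769, 480 and 564 in the Dmc1-high wells, 1608, 2609 and 3159 in the preleptotene set and 5.97, 81.3 and 30.9 in the zygotene set.

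Against the zygotene set 1291 genes were higher and 1282 lower of 5821 tested, which is 44.2% of the genes, with 22.2% higher and 22.0% lower. More genes thus passed than against the preleptotene set, in a fit that shares the Dmc1-high wells between both comparisons. Without mouse 3 the counts were 850 and 779, and DESeq2 gave 769 lower. The 8 pachytene markers summed to 1895, 3089 and 3217 CPM in the zygotene set, against 618, 715 and 1340 in the Dmc1-high wells. The 6 spermatid markers summed to 50.7, 5916 and 108 in the zygotene set, where 1 well held at least 1% spermatid marker UMIs. Without such wells the counts were 1268 and 1225. The part of pachytene RNA in these differences was not tested.

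Several genes of the Dmc1-high wells had no UMI in the zygotene set. Orc1, the largest subunit of the origin recognition complex, stood at 72.7, 42.7 and 108 CPM in the Dmc1-high wells and had 0 UMIs in the zygotene set, and was at least 21.8-fold higher. Swap70, Tyro3 and Rhd were also at 0 there, and were at least 15.9-fold, 13.4-fold and 12.9-fold higher in the Dmc1-high wells. Tyro3 encodes a receptor tyrosine kinase. Rbpms2 stood at 8.95, 9.03 and 27.8 in the zygotene set, so its log2 difference was 4.95 (SE 0.32, adjusted p = 7.88e-12). Lrig1 had 2 UMIs there, with a ratio of 36.4 (95% exact counting interval 9.56 to 309).

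The lowest genes against the zygotene set overlapped with those absent against all other wells. Alas1 stood at 74.6, 90.3 and 105 CPM in the zygotene set, at least 15.5-fold above the Dmc1-high wells, and B9d1 stood at 89.5, 54.2 and 74.1. A330049N07Rik stood at 173, 217 and 77.2 against 6.05, 0 and 0, and Dync2li1, a gene of ciliary transport, at 83.6, 63.2 and 67.9 against 6.05, 0 and 0. B3galnt1 and 2810474O19Rik, each with 2 UMIs in the Dmc1-high wells, fell by 4.35 and 4.23 on the log2 scale. Their ratios were 21.9 (95% exact counting interval 5.81 to 184) and 23.9 (6.37 to 201). For every gene of this paragraph, no mouse's zygotene value was as low as its value in the Dmc1-high wells.

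Of 5821 genes tested in the joint fit, 206 were higher in the Dmc1-high wells than in both neighbouring sets, and 115 were lower than in both. The 206 are 57.4% of the genes higher than in the preleptotene set and 16.0% of those higher than in the zygotene set. The 115 are 39.2% and 8.97% of the corresponding lower lists. Intermediate genes were fewer: 31 lay above the preleptotene and below the zygotene set, and 29 the other way. Both comparisons share the Dmc1-high wells, so a high value there counts in both. Among the 206, chosen after their values were seen, are Slit2, Gpr137c, Stxbp5l, 4933427G17Rik, Gm960, Ccdc79 and Fmr1. Fmr1, the X-linked gene of the RNA-binding protein FMRP, stood at 599, 981 and 803 CPM, against 191, 239 and 370 in the preleptotene set and 257, 262 and 299 in the zygotene set, with no overlap.

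Genes of double-strand break formation were the list with the highest median against the other wells, among the 10 lists of meiotic, cell cycle and piRNA genes. Of 13 tested, 11 were higher and 0 lower, with a median log2 difference of 2.36 where the median of all genes was -0.23. Against the preleptotene set 6 were higher and 0 lower (median 0.60, all genes -0.06), and against the zygotene set 10 were higher and 0 lower (median 1.96, all genes -0.02). For this list and those that follow, 19.5% of all genes were higher and 23.4% lower than in the other wells. Against the preleptotene set these shares were 6.17% and 5.03%, and against the zygotene set 22.2% and 22.0%. Mei1, needed for break formation, stood at 230, 320 and 313 CPM, against 182, 401 and 384 in the preleptotene set and 11.9, 0 and 15.4 in the zygotene set. It was thus separated from the zygotene set, by 4.48 on the log2 scale (SE 0.38, adjusted p = 8.17e-10), and overlapped the preleptotene set. Atm, the kinase that limits breaks, stood at 539, 597 and 448 against 53.7, 45.2 and 43.2 in the zygotene set, a log2 difference of 3.41. Spo11 went the other way round: it stood at 137, 163 and 148 in the zygotene set, near its level in the Dmc1-high wells (log2 difference 0.11, adjusted p = 0.78), and against the other wells it missed the threshold (log2 difference 0.52, adjusted p = 0.0555). Relative to the other wells Gm960, which encodes the SPO11 partner TOPOVIBL, rose by 3.56. Of the 6 genes called against the preleptotene set, DESeq2 called 2.

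Among genes of strand exchange, 9 of 21 tested were higher and 2 lower than in the other wells (median log2 difference 0.50). Against the preleptotene set 6 of 16 were higher and 0 lower (median 0.05), and against the zygotene set 5 were higher and 2 lower (median 0.76). With DESeq2, 2 were higher than in the preleptotene set. Over all genes the shares were 6.17% higher against the preleptotene set, and 22.2% higher and 22.0% lower against the zygotene set. Brca2, a gene of recombinational repair, stood at 781, 853 and 715 CPM, against 501, 449 and 393 in the preleptotene set and 146, 253 and 176 in the zygotene set. The ranges did not overlap, with log2 differences of 0.79 (SE 0.18, adjusted p = 0.00549) and 2.08 (SE 0.20, adjusted p = 6.03e-09). Hsf2bp, a BRCA2 partner, stood at 248, 299 and 286, above 109, 201 and 164 in the preleptotene set. Psmc3ip, which encodes the DMC1 accessory factor HOP2, was lower than in the other wells by a log2 difference of -1.23, and lower than in the zygotene set by -1.04, a call lost in 5 of 17 alternative analyses. Its partner Mnd1 had 30.3, 0 and 3.86 CPM in the Dmc1-high wells and 194, 45.2 and 114 in the zygotene set, and was not tested between those sets.

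Chromosome axis and synaptonemal complex genes were already above the preleptotene set. Of 10 tested, 8 were higher and 1 lower (median log2 difference 0.90), and against the zygotene set 4 were higher and 2 lower (median 0.23). The 2 lower than in the zygotene set are near the share over all genes, 22.0%. Relative to the other wells, 9 of 11 were higher and 0 lower (median 1.21). Sycp3, the axis component, stood at 998, 1309 and 1540 CPM in the preleptotene set, 2119, 3211 and 2754 in the Dmc1-high wells and 3006, 3631 and 4062 in the zygotene set. It was higher than in the preleptotene set by 1.07 on the log2 scale (SE 0.13, adjusted p = 8.73e-06), with no overlap. Hormad1, an axis protein that is removed at synapsis, stood at 273, 325 and 407, then 496, 672 and 672, then 1018, 1093 and 1099 in the same order of sets. These 2 genes are among the 31 that lay between the neighbouring sets, though the call of Sycp3 against the zygotene set was lost in 5 of 18 alternative analyses. Syce2 instead was highest in the Dmc1-high wells, at 763, 928 and 753 against 437, 411 and 402 before and 170, 361 and 232 after. Trip13, the ATPase that removes HORMAD proteins, was the 1 gene lower than in the preleptotene set, at 54.5, 64.0 and 65.7 against 82.0, 162 and 211. Its call was lost in 5 of 17 alternative analyses, and 5.03% of all genes were lower. With DESeq2, 6 of the 10 genes were higher than in the preleptotene set and 0 lower.

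Cohesin, the ring that holds sister chromatids together, has meiotic and mitotic subunits, and both kinds are in the list. Against the other wells 6 of 9 were higher and 1 lower (median log2 difference 1.30), where 19.5% and 23.4% of all genes were. Against the preleptotene set 2 of 6 were higher and 0 lower (median 0.44), where 6.17% of all genes were higher. Of these 2 calls, that of Smc3 was lost in 10 of 18 alternative analyses, and DESeq2 called 1 of 6. Against the zygotene set 5 of 6 were higher and 0 lower (median 1.28), where 22.2% of all genes were higher. Smc1b, the meiotic SMC subunit, stood at 1883, 2293 and 2020 CPM, against 857, 1013 and 1189 in the preleptotene set and 561, 984 and 482 in the zygotene set. The range of the Dmc1-high wells was apart from both, with log2 differences of 1.01 and 1.67. Rad21l, a meiotic kleisin, had 42.4, 74.7 and 15.5 against 1.17, 3.19 and 0.114 in the other wells, a log2 difference of 5.32 (SE 0.73, adjusted p = 5.74e-12). The 1 lower gene was Rad21, the mitotic kleisin, at 36.3, 117 and 61.8 against 112, 158 and 140, where the ranges overlapped.

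Genes that tie telomeres to the nuclear envelope were higher in 4 of 6 against the other wells, in 3 of 5 against the preleptotene set and in 4 of 5 against the zygotene set, with 0 lower in each and medians of 0.91, 1.21 and 0.69. With DESeq2, 1 of 5 was higher than in the zygotene set. Ccdc79, the older symbol of the telomere adaptor gene Terb1, stood at 412, 373 and 464 CPM, against 91.1, 86.0 and 229 in the preleptotene set and 92.5, 54.2 and 95.7 in the zygotene set. Its range in the Dmc1-high wells overlapped neither of the others, and its log2 differences were 1.62 and 2.29. Of the crossover genes, 4 of 10 were higher and 2 lower than in the other wells (median 0.66), 1 of 9 was higher than in the preleptotene set (median 0.38), and 4 were higher and 2 lower than in the zygotene set (median 0.58). The lower counts and the count against the preleptotene set are near the shares over all genes, 23.4% and 22.0% lower and 6.17% higher. The helicase gene Hfm1, at 527, 736 and 734, was the 1 higher than in the preleptotene set, where it stood at 132, 124 and 332. Msh5, which stabilises recombination intermediates, was higher than in the zygotene set by 2.23 on the log2 scale. The late crossover genes Mlh3 and Cntd1 were lower, with Cntd1 at 30.3, 32 and 15.5 against 313, 108 and 139 in the zygotene set.

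**Figure D3:**
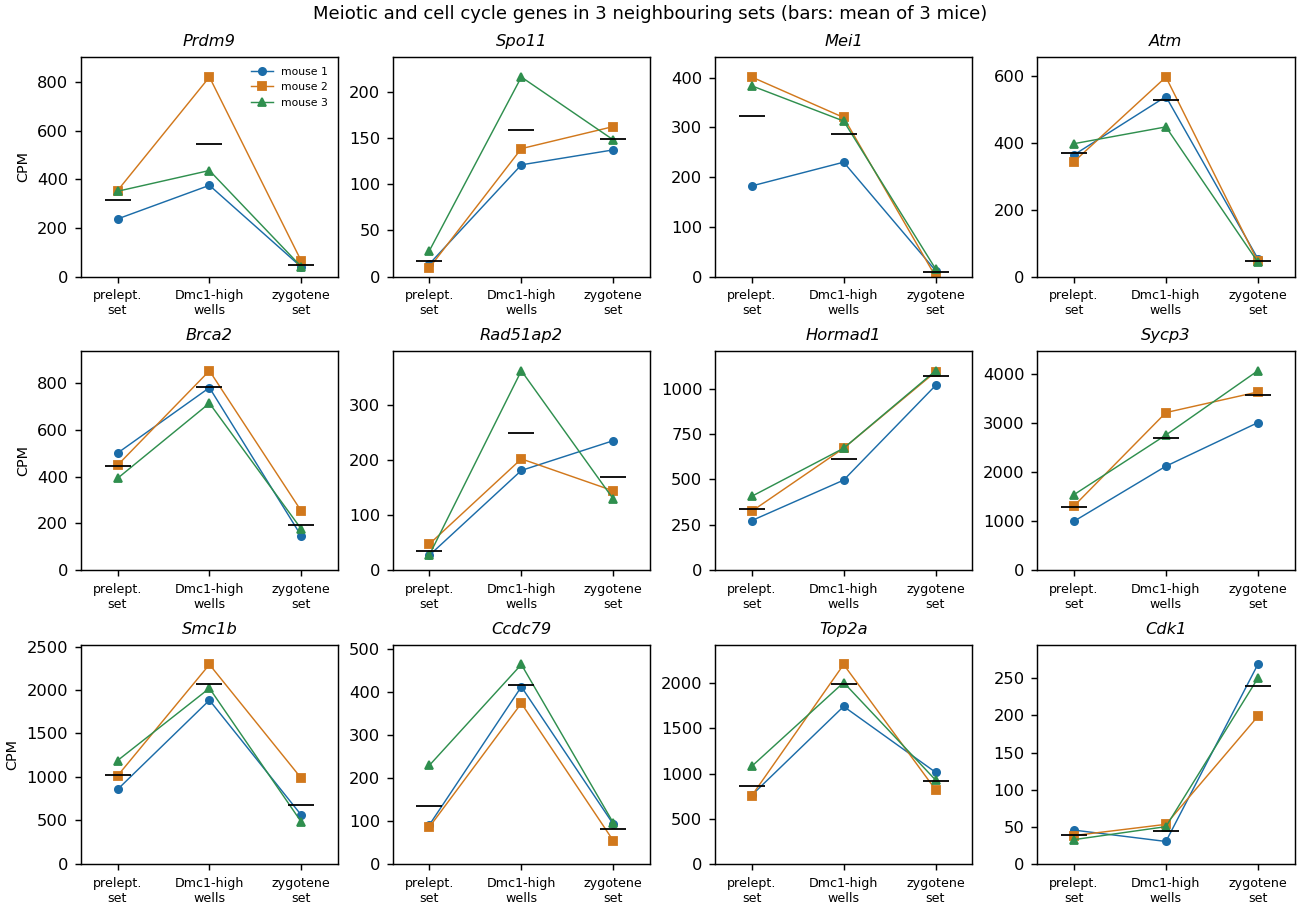
Level (vertical axes, CPM) of 12 meiotic and cell cycle genes in the preleptotene set, the Dmc1-high wells and the zygotene set; points are the 3 mice and bars their means. Prdm9, Brca2, Smc1b, Ccdc79 and Top2a are highest in the Dmc1-high wells in every mouse, Spo11 differs from the preleptotene set and not detectably from the zygotene set, and Hormad1 and Sycp3 lie between the neighbours.

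DNA replication genes were mostly not called against the preleptotene set, where 11.2% of all genes were, and mostly called against the zygotene set, where 44.2% were. Of 13 tested, 1 was higher and 1 lower than in the preleptotene set (median log2 difference -0.36), while 10 were higher and 1 lower than in the zygotene set (median 0.93). Compared with the other wells, 8 of 16 were higher and 2 lower (median 0.85). Rrm2, a ribonucleotide reductase subunit, stood at 182, 299 and 309 CPM, against 210, 507 and 421 in the preleptotene set and 5.97, 9.03 and 34.0 in the zygotene set, from which it was separated by 3.73 on the log2 scale. Mcm2, a subunit of the replicative helicase, was lower than in the preleptotene set, at 48.4, 21.3 and 57.9 against 105, 124 and 150. That call was lost in 6 of 17 alternative analyses. Gins1 was the 1 gene higher, at 194, 181 and 158 against 45.6, 47.8 and 65.5, with no overlap.

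In the mitosis list 3 of 12 genes were higher than in the other wells and 8 lower, where 19.5% and 23.4% of all genes were. Top2a, Bub1 and Mki67, which act on or mark chromosomes, were the higher genes, and the median of the list was -1.67. Top2a, the topoisomerase that untangles DNA, stood at 1744, 2208 and 2009 CPM, against 761, 755 and 1081 in the preleptotene set and 1015, 822 and 929 in the zygotene set. The Dmc1-high wells overlapped neither neighbouring set. Cdk1, the mitotic kinase, stood at 30.3, 53.3 and 50.2 against 269, 199 and 250 in the zygotene set, and was lower by -2.47 on the log2 scale (SE 0.32, adjusted p = 5.89e-07). Against the preleptotene set 3 of 10 were higher, the same Top2a, Bub1 and Mki67, and 0 lower (median 0.48). Against the zygotene set 4 of 10 were higher and 5 lower (median -0.57), where 22.2% and 22.0% of all genes were.

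The piRNA pathway, which silences transposons and is abundant later in prophase, was mostly lower. Against the other wells 2 of 15 genes were higher and 11 lower (median log2 difference -1.72), and against the zygotene set 2 of 13 were higher and 9 lower (median -1.69). Against the preleptotene set 1 was higher, near the share of 6.17% over all genes, and 0 lower (median -0.09). Tdrd1, a Tudor protein gene, stood at 42.4, 74.7 and 77.3 CPM, against 272, 199 and 293 in the zygotene set and 527, 561 and 754 in the other wells. Tex15 went against its list, at 2591, 3371 and 3299 against 319, 271 and 303 in the zygotene set, a log2 difference of 3.31 (SE 0.15, adjusted p = 3.11e-15). TEX15 is known both for its role in recombination and for piRNA-directed silencing. It was also the 1 gene higher than in the preleptotene set, where it stood at 1727, 2170 and 2162.

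Of the genes of meiotic entry, 3 of 4 tested were higher than in the other wells and 0 lower (median 1.60). Ythdc2, which with MEIOC promotes the switch from mitosis to meiosis, stood at 333, 373 and 359 CPM, above 200, 153 and 197 in the preleptotene set and 188, 271 and 154 in the zygotene set. It was the 1 of 3 tested that was higher than in each neighbouring set, where the medians were 0.32 and -0.01. Rbm46 was lower than in the zygotene set, a call lost in 3 of 18 alternative analyses, and 0 were lower than in the preleptotene set. For Ythdc2 the call against the preleptotene set was lost in 6 alternative analyses. Dazl, whose reporter sorted the cells, stood at 2888, 2763 and 2758 against 1142, 1490 and 1030 in the other wells. It did not pass the test between the neighbouring sets (log2 differences 0.20 and -0.01).

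X-linked RNA was as abundant as in the preleptotene set within the spread over mice. For each 100 autosomal UMIs the Dmc1-high wells held 3.30, 3.16 and 2.97 X-linked UMIs in mice 1, 2 and 3, the preleptotene set 3.17, 3.28 and 3.14, the zygotene set 1.87, 1.60 and 1.55, and the other wells 1.11, 1.16 and 0.78. The Dmc1-high wells overlapped the preleptotene set and lay above the zygotene set in 3 of 3 mice. The log2 difference was 1.65 ± 0.25 (SD, n = 3) from the other wells, 0.91 ± 0.08 from the zygotene set and -0.02 ± 0.07 from the preleptotene set. An exact two-sided permutation test within 3 mice cannot give a p below 0.25, and gave 0.25 for the first and second and 0.75 for the last. By gene, 165 of 362 X-linked genes tested were higher and 7 lower than in the other wells, or 45.6% higher, against 18.6% of 10985 autosomal genes. Against the zygotene set 85 of 171 were higher and 4 lower, or 49.7% and 2.34%, against 21.3% and 22.7% of 5640 autosomal genes. Against the preleptotene set 16 were higher and 15 lower, or 9.36% and 8.77%, nearer the autosomal 6.08% and 4.93%. The most abundant X-linked genes called higher than in the other wells included Taf7l, a germ cell TFIID subunit gene, at 957, 1568 and 1634 against 151, 308 and 229. Irak1 differed between the mice in every set, at 1883 in mouse 1 and at 32 and 27.0 in mice 2 and 3, and mouse 1 was the one prepared by CEL-Seq1. The Y-linked share was also above that of the other wells, by 1.11 ± 0.27 on the log2 scale (exact permutation p = 0.25). It was below that of the preleptotene set in 3 of 3 mice (-0.19 ± 0.06) and above that of the zygotene set in 2 of 3 (0.17 ± 0.42).

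The Dmc1-high wells held little RNA. Per UMI of the ERCC spike-in, a fixed amount of foreign RNA added to each well, they held 39.1, 16.3 and 14.6 endogenous UMIs in mice 1, 2 and 3, and the other wells 171, 48.1 and 47.2. Within each mouse the value was lower, by a log2 difference of -1.79 ± 0.30 (SD, n = 3, exact permutation p = 0.25, the smallest possible). Against the neighbouring sets the log2 differences were -0.19 ± 0.43 from the preleptotene set, lower in 2 of 3 mice, and -0.67 ± 0.26 from the zygotene set, lower in 3 of 3. Mitochondrial transcripts made up 10.8%, 16.5% and 16.5% of UMIs, against 8.71%, 13.4% and 13.8% in the preleptotene set, 7.68%, 15.0% and 14.3% in the zygotene set and 4.43%, 10.8% and 9.39% in the other wells. In each mouse the Dmc1-high wells had the highest share of the 4 sets. The RNA content and the mitochondrial share move together with every difference from the other wells given above, and their part in those differences was not tested.

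**Figure D4:**
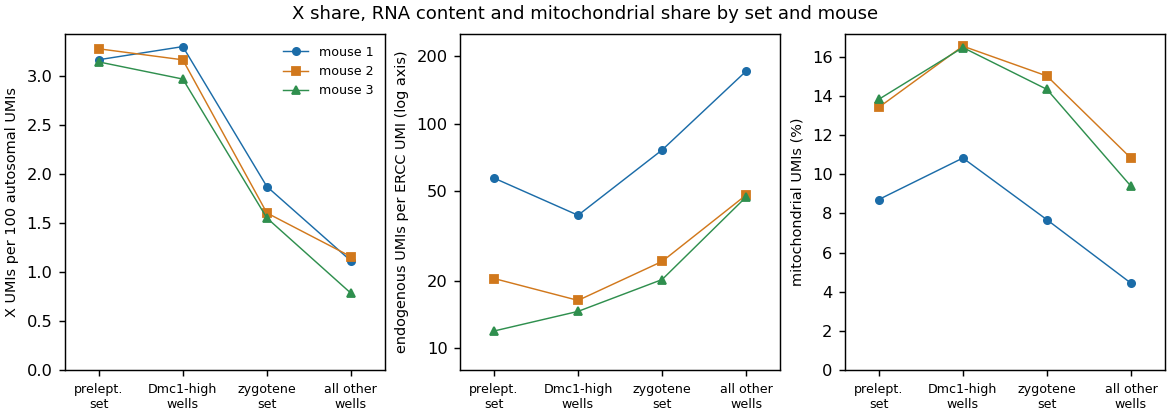
X-linked UMIs per 100 autosomal UMIs (left), endogenous UMIs per ERCC UMI on a log axis (middle) and mitochondrial UMIs in percent (right) for the preleptotene set, the Dmc1-high wells, the zygotene set and all other wells. Each line is 1 mouse; the X share stays near 3 in the first and second set and is 1.55 to 1.87 in the zygotene set, and the mitochondrial share is highest in the Dmc1-high wells in every mouse.

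Marker genes of entry and of the next stage were found together in wells of every set, most often among the Dmc1-high wells. Of the 55 Dmc1-high wells, 37 held UMIs of both Stra8 and Meiob, the gene of a single-strand DNA binding protein of recombination, 11 held only Stra8 and 7 only Meiob. By mouse, 8 of 21, 10 of 12 and 19 of 22 wells held both. Both were also held by 14 of 49 preleptotene, 13 of 52 zygotene and 283 of 1173 other wells. After thinning to 3000 UMIs per well, 21 Dmc1-high wells held both, 14 only Stra8, 12 only Meiob and 8 neither. By mouse, 4 of 21, 8 of 12 and 9 of 22 thinned wells held both. The thinned preleptotene, zygotene and other wells with both were 7, 3 and 44. Whether the genes met in a well more often than their separate shares would give was not tested. In the same thinned wells Stra8 was found in 35 of 55 Dmc1-high wells, or 63.6% (95% exact binomial interval 49.6 to 76.2), and Meiob in 33 of 55 (45.9 to 73.0). Without thinning the shares were 87.3% and 80.0%. As background, Stra8 was found in 5.77% of the thinned zygotene wells and Meiob in 14.3% of the thinned preleptotene wells, sets that these genes helped to choose. Median depth was 8658, 10926 and 9756 UMIs in the Dmc1-high, preleptotene and zygotene wells.

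**Figure D5:**
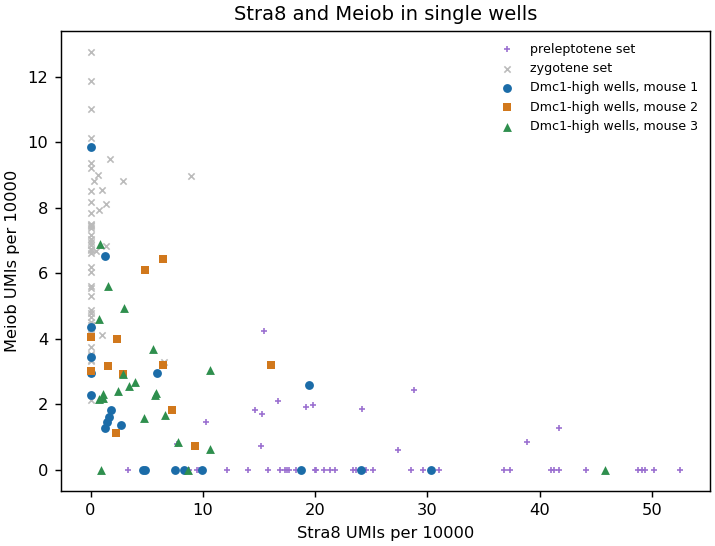
Stra8 (horizontal axis) and Meiob (vertical axis), each in UMIs per 10000 of a well, in the 55 Dmc1-high wells (coloured by mouse), the preleptotene set and the zygotene set. Dmc1-high wells overlap both neighbouring sets, with 37 wells holding UMIs of both genes, 11 only Stra8 and 7 only Meiob.

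Over all 1228 kept wells, the genes whose log level followed the score most closely, outside the 6, were Rbpms2, H2-K1, Prss50, Prdm9 and Fmr1. Their Pearson r with the score, averaged over the 3 mice, was 0.74, 0.72, 0.68, 0.68 and 0.66. These correlations are a description over wells that share libraries and differ in depth, and the wells are not independent replicates. Prss50, which encodes a testis serine protease, stood at 757, 1205 and 1286 CPM against 55.3, 192 and 97.4 in the other wells. H2-K1, a classical class I histocompatibility gene, stood at 1223, 1568 and 2128 in the Dmc1-high wells, 674, 707 and 1048 in the preleptotene set, 451, 370 and 602 in the zygotene set and 133, 172 and 149 in the other wells. No range overlapped that of the Dmc1-high wells, and the log2 difference from the preleptotene set was 1.02 (edgeR adjusted p = 5.57e-05). H2-K1 was named because it followed the score that chose these wells. Its separation was favoured by that choice, and the adjusted p is not an independent test of it. H2-D1 and H2-Ab1, a pair of related genes picked after the H2-K1 values were seen and from no fixed list, were also highest in the Dmc1-high wells. H2-D1 itself followed the score, with a mean r of 0.61, so it has the same limit. H2-D1, also of class I, stood at 678, 651 and 796, above 342, 124 and 300 in the preleptotene set and 281, 126 and 296 in the zygotene set. H2-Ab1, of class II, stood at 139, 139 and 155, and its log2 differences from the preleptotene and zygotene sets were 1.86 and 2.80.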

How the data were processed

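Live GFP-positive testis cells of 3 Dazl-GFP mice were sorted into plate wells and sequenced by SORT-Seq, per the labels' protocols. Reads were mapped with BWA 0.7.10 to mm10, per the submitters' processing notes. The authors deposited tables of raw counts per gene and well: UMI counts, used here, and read counts, used as an alternative. A further table of transcript numbers was not used, because only 2 of 768 columns of mouse 1 matched the UMI table by name. Spike-in, mitochondrial, eGFP and Rn45s rows were left out of totals. Depth per mouse was 16682671, 5866174 and 18032562 UMIs. For mouse 1 the number of distinct tags, 256, limits the count of a gene in a well.

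UMIs were summed per mouse and set and tested with edgeR 4.0.16 (R 4.3.3; TMM, filterByExpr, mouse as block, Benjamini-Hochberg adjustment over all genes tested, threshold 0.05). The code was also run on simulated counts. These held no difference between mice and no choice of wells by a score, so that run could not test the block or the effect of the choice. Score genes were left out of the tests. The block was kept because the sets come from the same animals; deviations from set means correlated with r from 0.32 to 0.82 within mice over 4974 genes. Named genes were the called genes of at least 50 CPM (UMIs per 1000000) in the higher set, changed alike in 3 mice, with the largest fold (12 higher and 10 lower against the other wells, 6 and 6 against each neighbouring set), and the 2 largest changes of each list. Other genes were chosen after their values were seen. The members and lists were chosen with earlier results of these data known. Gm4969 is not a row of the table, so 3 of 4 preleptotene genes were scored. Alternatives were DESeq2 1.42.0, other scalings, thresholds, depths and left-out mice. Intervals cover counting error only. The labels do not say whether wells or libraries of a mouse came from separate testes.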

Additional observations from a re-analysis of the deposited data

Results flagged for a closer look

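The reporter transcript eGFP, which was left out of all totals, had 56 UMIs in the other kept wells. It had 2 UMIs in the Dmc1-high wells, both in mouse 3. It stands out because it is a signal in rows that no comparison above used. No cells without the reporter were analysed here to set a background.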

How the results depend on the processing

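None of the named results reversed its direction in the alternatives run. Against the other wells, the number of higher genes, 2218, was 1424 when the top 3% of wells were taken, 876 from sums of wells thinned to 3000 UMIs, 1347 from read counts, and 1195 to 1786 when 1 mouse was left out. The number of lower genes, 2660, was 1262 from thinned sums and 1783 to 2190 with 1 mouse left out. Against the preleptotene set the 359 higher and 293 lower genes became 599 and 470 with a minimum of 1000 UMIs, 701 and 614 with the top 6% of wells, 684 and 769 with scores from thinned wells, 61 and 80 from thinned sums, 104 and 66 from read counts, and 123 and 82 with DESeq2. They became 38 and 30 without the mouse as a block in the paired design, and 83 to 208 and 81 to 169 with 1 mouse left out. Against the zygotene set the 1291 higher genes became 349 from thinned sums and 850 to 1169 with 1 mouse left out. The 1282 lower genes became 836 with the top 3% of wells, 366 from thinned sums, 681 from read counts, 769 with DESeq2, 785 without the mouse as a block, and 779 to 1110 with 1 mouse left out. Thinned sums hold fewer UMIs by construction, and the causes of the other changes were not tested. Without wells rich in spermatid markers, an alternative added after seeing the data, the counts were 2218 and 2655, 432 and 330, and 1268 and 1225. With 1 mouse left out the log2 X share against the other wells was 1.51 to 1.75, the Y share 0.97 to 1.23, the RNA content -1.91 to -1.63 and the mitochondrial share 0.71 to 1.05. Of single calls against the preleptotene set, Smc3 was lost in 10 of 18 alternatives, and Trip13, Gm960 and 4930432K21Rik in 5. At a median of 7020 to 10772 UMIs per well, a gene missing from a well was not detectable at that depth.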
